A study of Mus musculus with 6 samples.

Results

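Hepatocytes that sit next to the central vein of a liver lobule receive Wnt proteins and R-spondins from the endothelium of that vein, and beta-catenin then switches on genes of ammonia capture, of drug oxidation and of feedback on the Wnt signal itself. A set of 9 genes tied to this zone or signal was followed in mouse liver. It held the Wnt feedback and receptor genes Axin2, Lgr5, Rnf43 and Znrf3, and the transcription factor gene Tbx3. It also held the pericentral enzyme and transporter genes Glul and Rhbg, the vitamin C synthesis gene Gulo, and Ctnnb1, which encodes beta-catenin itself. The 9 genes were chosen by name, with earlier results of these data known. Every probe set that the array annotation pairs with 1 of these genes alone was taken. This gave 19 of the 45037 probe sets tested. The 9 genes are among 18193 that at least 1 unshared probe set measured, and none of the 9 was missed. No probe set was shared between one of them and another gene.

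Total liver RNA was measured on Affymetrix arrays in 3 mice of C57BL/6J and 3 of B6.C3H-6T, 1 mouse per array, all of them females aged 8 weeks and fed chow. C57BL/6J is an inbred strain and the recipient background here, and B6.C3H-6T is a congenic strain with a segment of C3H DNA on chromosome 6 and, by the title of the series, low serum IGF-1. The labels name no transgene, induced deletion or drug for either group. None of the 9 genes lies on chromosome 6: Glul is on chromosome 1, Rhbg on 3, Tbx3 on 5, Ctnnb1 on 9, Lgr5 on 10, Axin2, Rnf43 and Znrf3 on 11, and Gulo on 14 of mouse assembly GRCm38.p6.

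In this circuit a Wnt protein binds a Frizzled receptor with an LRP co-receptor, which stops the destruction complex, built on axins, from marking beta-catenin for degradation. Rnf43 and Znrf3 encode membrane ubiquitin ligases that remove Frizzled receptors, and R-spondins bound to Lgr4 or Lgr5 take these ligases away. Axin2, Rnf43, Znrf3 and Lgr5 are themselves induced by the pathway in many tissues, so that they serve as its feedback arm and as its readout. In liver, glutamine synthetase (Glul) is restricted to the last rows of hepatocytes before the central vein, where Rhbg, an ammonia channel, is also found.

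The median log2 signal of an array was at least 6.07 and at most 6.11. The 3' minus 5' signal of the Actb control probe sets, a measure of RNA integrity, ran from 0.59 to 0.61 in C57BL/6J and from 0.53 to 0.70 in B6.C3H-6T. All 7 hepatocyte markers measured (Alb, Apoa1, Apob, Ttr, Fgb, Hnf4a and Cps1) had a mean signal above that of nearly all olfactory receptor probe sets, which served as a guide to dim signal because liver hardly uses those genes. Their median was 5.20 and their 95th percentile 6.92 over 44 probe sets. Of the 19 probe sets, 13 lay above that level, at least 1 for each of the 9 genes, and 6 lay at or below it.

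For 3 of the genes the upstream sequence is shown, because they stand for the feedback arm (Axin2 and Rnf43) and for the pericentral enzyme (Glul) that the comparisons below turn on. The sequences are from the RefSeq promoter table of GRCm38.p6, in which 4 of the 9 genes had a window (Axin2, Ctnnb1, Glul and Rnf43). Each run is the 250 bases before a transcript start, 5′ to 3′ on the plus strand, with CG dinucleotides in capitals. Axin2 is at chr11:108920099-108920348, Rnf43 at chr11:87662837-87663086 and Glul at chr1:153899679-153899928.
Axin2: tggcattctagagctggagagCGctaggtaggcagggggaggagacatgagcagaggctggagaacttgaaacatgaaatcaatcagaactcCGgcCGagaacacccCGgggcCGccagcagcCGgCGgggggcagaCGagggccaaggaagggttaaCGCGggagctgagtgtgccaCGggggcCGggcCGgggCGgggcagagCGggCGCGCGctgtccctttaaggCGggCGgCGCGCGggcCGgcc
Rnf43: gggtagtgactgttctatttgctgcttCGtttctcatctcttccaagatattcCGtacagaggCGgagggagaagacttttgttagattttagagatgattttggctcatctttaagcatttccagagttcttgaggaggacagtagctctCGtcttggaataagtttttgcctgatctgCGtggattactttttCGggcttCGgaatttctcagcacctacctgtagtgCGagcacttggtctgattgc
Glul: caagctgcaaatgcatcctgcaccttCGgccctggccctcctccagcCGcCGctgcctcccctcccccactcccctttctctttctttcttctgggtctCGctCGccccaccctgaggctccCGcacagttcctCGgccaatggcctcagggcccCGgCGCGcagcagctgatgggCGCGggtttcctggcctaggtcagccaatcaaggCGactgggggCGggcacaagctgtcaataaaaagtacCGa
The Axin2 window held 24 CG dinucleotides and 69.2% G or C, the Glul window 15 and 64.8%, and the Rnf43 window 8 and 44.4%, against medians of 6 and 52.4% over all 32851 windows of the table. The letters CTTTG, the core that TCF and LEF factors bind, were searched on both strands. They were in none of the 6 windows of the 4 genes, and 48.6% of all windows of this length held them. The longer CTTTGAT, which contains that core, was in 3.21% of all windows. Rnf43 has a further start in the table, Ctnnb1 has 2, and the windows say nothing of sites farther away.

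The comparison of the strains asked whether liver of the congenic mice differed in the Wnt-driven pericentral program. No probe set of the 9 genes passed at an adjusted p under 0.05 (limma, Benjamini-Hochberg over all 45037 probe sets), where 0.0577% of all probe sets did. The smallest adjusted p was 0.223, for Lgr5. At an unadjusted p under 0.05, 6 of the 19 probe sets (31.6%) were lower in B6.C3H-6T and 0 were higher, against 4.82% of all probe sets lower, 5.74% higher and 7.63% lower among the 22518 brighter probe sets. The 6 probe sets belong to Lgr5, Rnf43, Znrf3, Tbx3 and Glul, and Tbx3 supplied 2 of them. Of the 19, 13 differences were below 0, against 43.5% of all probe sets. In 5 of the 19 (26.3%) the strains did not overlap with B6.C3H-6T lower, against 6.44% of all probe sets, and in 0 with B6.C3H-6T higher, against 9.58%. With 1 probe set per gene, the brightest, 3 of the 9 genes did not overlap with B6.C3H-6T lower (Lgr5, Tbx3 and Rnf43), against 7.49% of all genes, and 0 with B6.C3H-6T higher, against 10.3%. The median difference, B6.C3H-6T minus C57BL/6J, was -0.06 over the 19 probe sets and 0.02 over all probe sets, both on the log2 scale.

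**Figure D1:**
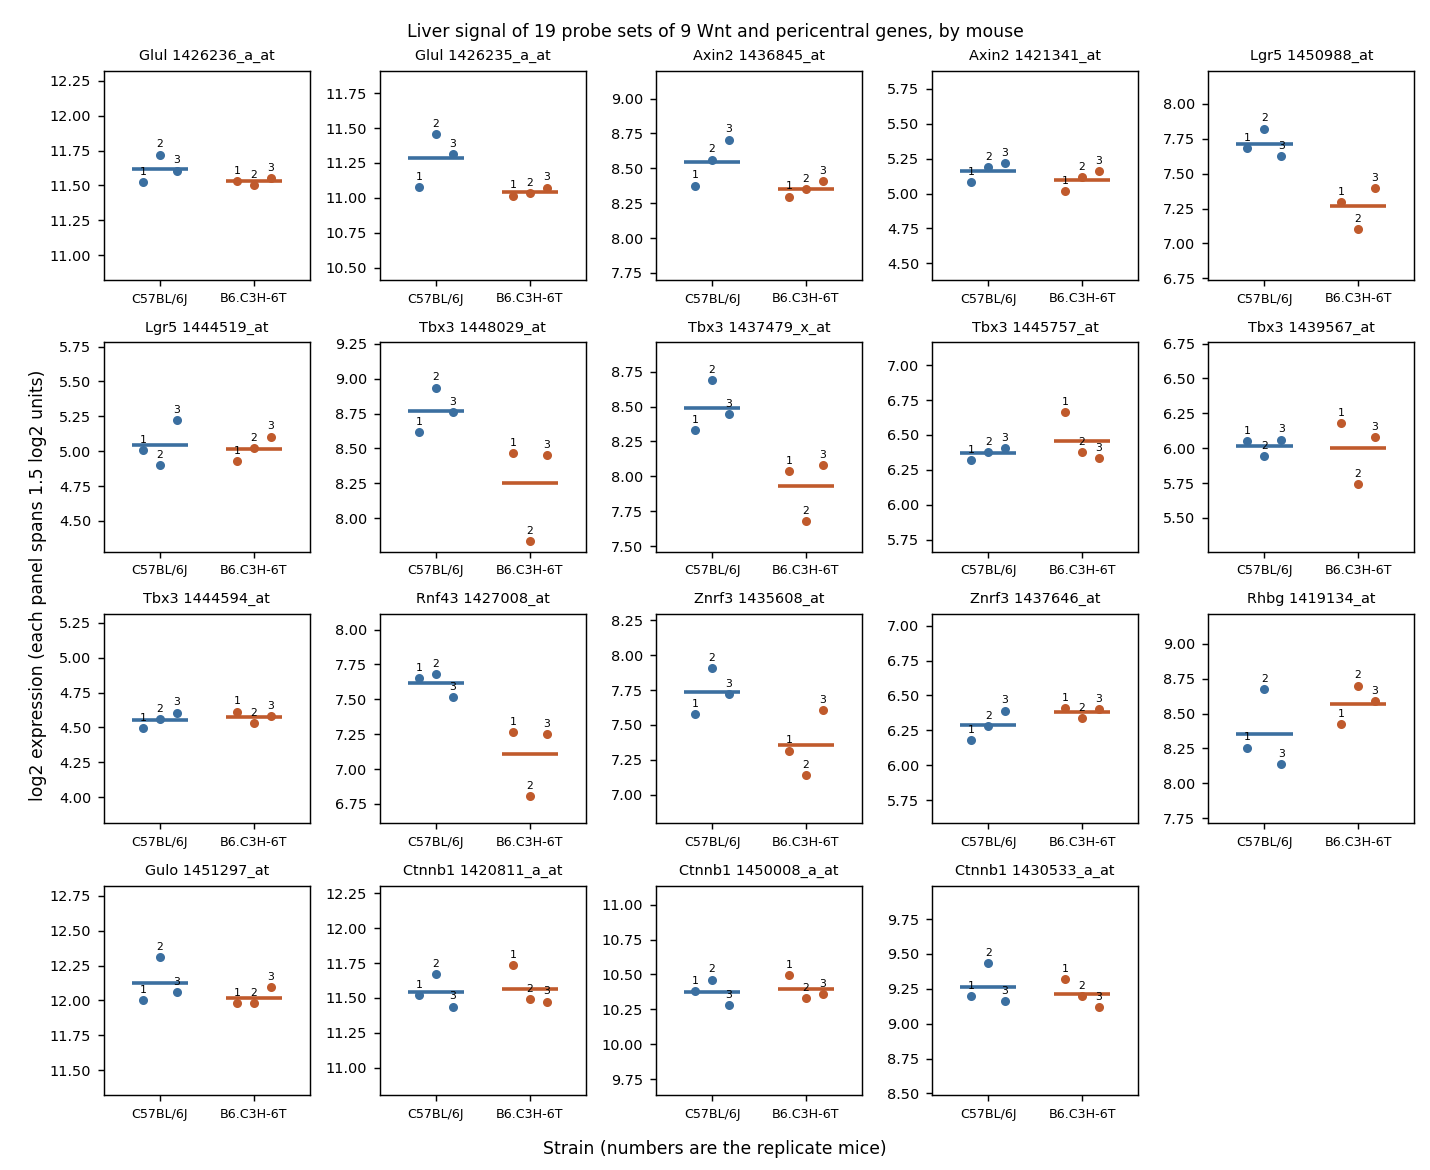
Log2 expression of the 19 probe sets in each mouse, with C57BL/6J in blue, B6.C3H-6T in orange, replicate numbers beside the points and group means as bars; every panel has the same span. The strains are apart for Lgr5 1450988_at, Rnf43, the pair of brighter Tbx3 probe sets and narrowly Glul 1426235_a_at, and B6.C3H-6T replicate 2 is the lowest mouse in all of these but Glul.

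Lgr5 encodes the R-spondin receptor that marks pericentral hepatocytes and stem cells of several epithelia. Its brighter probe set, 1450988_at, read 7.69, 7.82 and 7.63 in the C57BL/6J mice and 7.30, 7.10 and 7.40 in the B6.C3H-6T mice. Every congenic mouse was below every C57BL/6J mouse. The means were 7.71 ± 0.10 (SD, n = 3) and 7.27 ± 0.15, and the difference was -0.45 ± 0.09 (log2 difference ± SE, 95% interval -0.65 to -0.24), a signal at 73.4% of the C57BL/6J level. It had the smallest p among the 9 genes (unadjusted limma p = 0.000818, adjusted p = 0.223, exact permutation p = 0.1). With 3 mice against 3, 0.1 is the smallest p that the two-sided exact permutation test can give. The other Lgr5 probe set, 1444519_at, had a mean near the median of the olfactory receptor probe sets, at 5.04 and 5.02, and differed by -0.03 ± 0.09.

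Rnf43, the ubiquitin ligase gene that Lgr5 signalling opposes, had 1 probe set, 1427008_at. It read 7.65, 7.68 and 7.51 in C57BL/6J and 7.26, 6.81 and 7.25 in B6.C3H-6T. The strains did not overlap, and B6.C3H-6T replicate 2 was well below the other congenic mice. Its value was also below the 95th percentile of the olfactory receptor probe sets, 6.92. The difference was -0.51 ± 0.12 (95% interval -0.78 to -0.24; limma adjusted p = 0.258, exact permutation p = 0.1), or 70.2% of the C57BL/6J signal. Without B6.C3H-6T replicate 2 it was the smallest of the leave-one-out values, -0.36.

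Znrf3 encodes the paralog of Rnf43 with the same role at Frizzled receptors. Probe set 1435608_at read 7.58, 7.91 and 7.72 in C57BL/6J against 7.32, 7.14 and 7.61 in B6.C3H-6T. The strains overlapped, since B6.C3H-6T replicate 3 was above C57BL/6J replicate 1. The difference was -0.38 ± 0.13 (95% interval -0.67 to -0.10; limma adjusted p = 0.371, exact permutation p = 0.2). The dimmer probe set 1437646_at differed the other way, by 0.10 ± 0.07, and lay below the 95th percentile of the olfactory receptor probe sets.

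Axin2 encodes the axin that acts as the general feedback inhibitor of the pathway in the destruction complex. Its brighter probe set, 1436845_at, read 8.38, 8.56 and 8.71 in C57BL/6J and 8.30, 8.35 and 8.41 in B6.C3H-6T. The congenic mice lay close together at or below the lower end of the C57BL/6J range, with a single overlap between B6.C3H-6T replicate 3 and C57BL/6J replicate 1. The difference was -0.20 ± 0.09 (95% interval -0.40 to 0.00; limma adjusted p = 0.482, exact permutation p = 0.2). The dim probe set 1421341_at differed by -0.06 ± 0.07.

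Tbx3, a T-box transcription factor gene that marks pericentral hepatocytes, had 5 probe sets, and they did not read alike. The brighter pair separated the strains. Probe set 1448029_at read 8.62, 8.94 and 8.76 in C57BL/6J and 8.47, 7.83 and 8.45 in B6.C3H-6T, and 1437479_x_at read 8.33, 8.69 and 8.44 against 8.04, 7.68 and 8.08. Their differences were -0.52 ± 0.16 (limma adjusted p = 0.353) and -0.56 ± 0.12 (limma adjusted p = 0.25), each with an exact permutation p of 0.1, and the latter was the largest difference of the 19 probe sets. B6.C3H-6T replicate 2 was the lowest mouse in both, and without it the difference of 1448029_at was -0.31. The suffix _x_at marks a probe set that may also bind other transcripts. The 3 others, 1445757_at, 1439567_at and 1444594_at, were dim, overlapped between the strains and differed by 0.09 ± 0.09, -0.02 ± 0.11 and 0.02 ± 0.06.

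**Figure D2:**
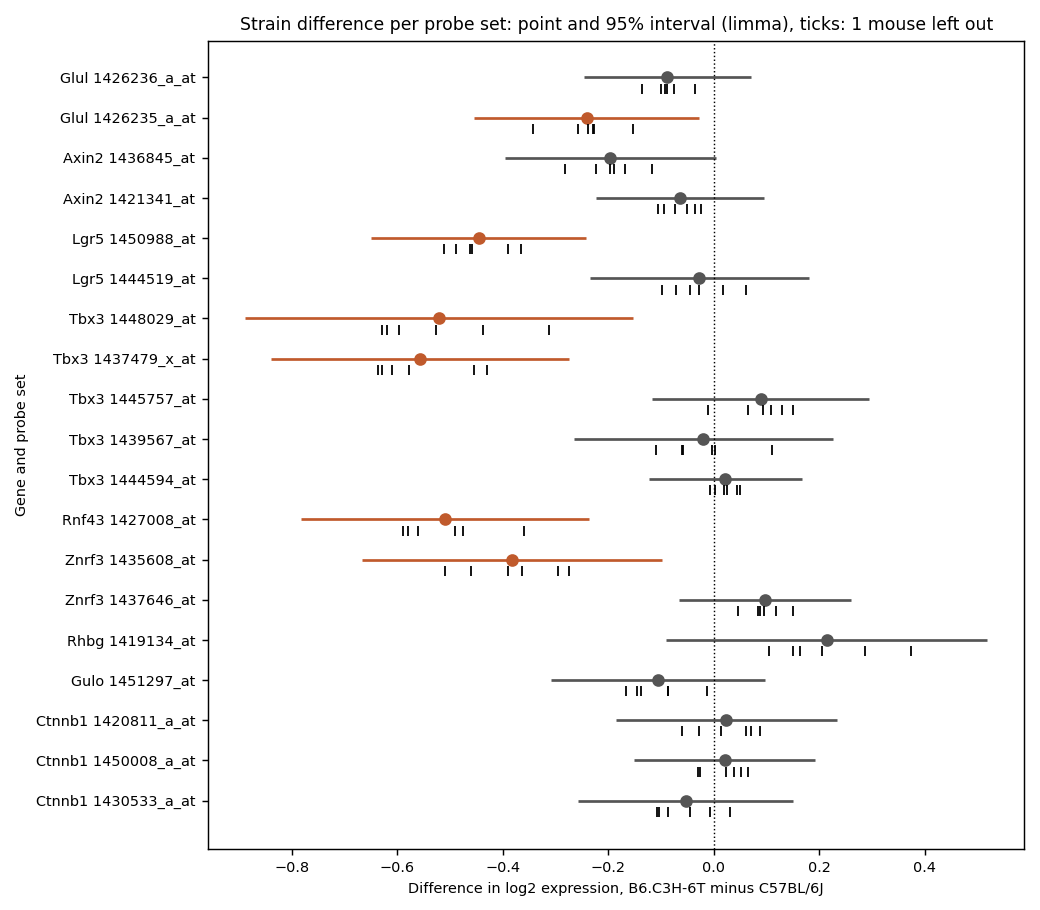
Difference in log2 expression between the strains for each of the 19 probe sets, as a point with its 95% interval from limma, orange where the unadjusted p is under 0.05; ticks under each interval are the differences with 1 mouse left out. The 6 orange intervals lie below 0, the pair of Glul probe sets differ in size, and all 3 Ctnnb1 points lie within 0.06 of 0.

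Glul, the enzyme gene that captures the ammonia left at the end of the lobule, was measured by 2 bright probe sets. Probe set 1426236_a_at read 11.52, 11.72 and 11.61 in C57BL/6J and 11.53, 11.50 and 11.55 in B6.C3H-6T. The strains overlapped, and the difference was -0.09 ± 0.07 (95% interval -0.25 to 0.07; limma adjusted p = 0.696, exact permutation p = 0.3). Probe set 1426235_a_at read 11.08, 11.46 and 11.31 against 11.02, 11.03 and 11.07, which left the strains just apart at C57BL/6J replicate 1 and B6.C3H-6T replicate 3. There the difference was -0.24 ± 0.09 (95% interval -0.45 to -0.03; limma adjusted p = 0.435, exact permutation p = 0.1), and it was -0.15 without C57BL/6J replicate 2. In both probe sets the congenic mice were closer together than the C57BL/6J mice, with an SD of 0.03 against 0.10 and 0.19.

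Rhbg, the ammonia channel gene, had the largest positive difference of the 19 probe sets, and its mice overlapped. Probe set 1419134_at read 8.26, 8.68 and 8.14 in C57BL/6J and 8.42, 8.70 and 8.59 in B6.C3H-6T. C57BL/6J replicate 2 was as high as the congenic mice and the other C57BL/6J mice were below them. The difference was 0.21 ± 0.13 (95% interval -0.09 to 0.52; limma adjusted p = 0.611, exact permutation p = 0.3).

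Gulo encodes the last enzyme of vitamin C synthesis, which mice keep and humans lack. Its probe set 1451297_at read 12.00, 12.31 and 12.06 in C57BL/6J and 11.98, 11.98 and 12.10 in B6.C3H-6T. Apart from C57BL/6J replicate 2, which was highest, the mice of both strains lay in 1 narrow band. The difference was -0.11 ± 0.09 (95% interval -0.31 to 0.10; limma adjusted p = 0.717, exact permutation p = 0.5).

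Ctnnb1 is regulated mainly at the protein level, so that its transcript need not follow the activity of the pathway. The brightest probe set, 1420811_a_at, read 11.52, 11.67 and 11.44 in C57BL/6J and 11.74, 11.49 and 11.47 in B6.C3H-6T. The other probe sets, 1450008_a_at and 1430533_a_at, overlapped between the strains in the same way. The differences were 0.02 ± 0.09, 0.02 ± 0.08 and -0.05 ± 0.09, with 95% intervals of -0.19 to 0.23, -0.15 to 0.19 and -0.26 to 0.15. The limma adjusted p was 0.951, 0.948 and 0.874.

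The mice that set these differences were often the same. B6.C3H-6T replicate 2 was the lowest congenic mouse in 5 of the 6 probe sets at an unadjusted p under 0.05 and in 10 of all 19. C57BL/6J replicate 2 was the highest C57BL/6J mouse in 6 of the 6 and in 12 of all 19. The same counts were not taken over all probe sets, so whether this is a trait of these genes or of these arrays was not tested. The 6 were also picked for being lower, which favours a low congenic mouse and a high C57BL/6J mouse. With both of these arrays left out, a choice made after the values were seen, 2 mice remained per strain and the differences were -0.31 for Lgr5 1450988_at, -0.33 for Rnf43, -0.33 and -0.23 for the brighter Tbx3 probe sets, -0.19 for Znrf3 1435608_at and -0.15 for Glul 1426235_a_at. Of these 6, Lgr5, Rnf43 and both Tbx3 probe sets had an unadjusted limma p under 0.05, and so did Rhbg in the other direction, at 0.31. With 1 array left out in turn, the difference ran from -0.51 to -0.36 for Lgr5, from -0.59 to -0.36 for Rnf43, from -0.63 to -0.31 and from -0.64 to -0.43 for the Tbx3 pair, from -0.51 to -0.27 for Znrf3 and from -0.34 to -0.15 for Glul. None of the 19 passed the adjusted threshold in any of these fits.

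The 5 genes whose pattern over the arrays was most like that of Glul were none of the other 8. Likeness was taken as the root mean square difference of log2 values centred on each gene over the 6 arrays, among 17534 genes whose SD over the arrays was at least 0.5 of that of Glul, with 1 probe set per gene. The nearest were Gapvd1 (0.016), Il6st (0.017), Ly6e (0.017), Ppp4r2 (0.017) and Rad51ap1 (0.019). Of the other 8 genes Gulo came nearest, at 0.050 and rank 373, followed by Axin2 at 0.10 and rank 5573. Tbx3, at 0.29, was the farthest. The values were not scaled, so a gene that varied more than Glul could rank far for its size of change alone. Glul was read here by 1426236_a_at, its brighter probe set, in which the strains overlapped. Likeness of shape apart from size was not tested.

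Around the members, the rest of the pathway was read with 1 probe set per gene, the brightest. Of the 18193 genes 0.0715% were called at an adjusted p under 0.05, and 5.8% were lower and 6.34% higher at an unadjusted p under 0.05. None of the pathway genes below was called. Among the ligands, R-spondins and their secretion genes, 20 of 25 were higher and 5 lower, with a median of 0.08 against 0.02 over all genes, and 2 were higher and 0 lower at an unadjusted p under 0.05. These were Wnt10a (0.23 ± 0.06) and Wnt4 (0.21 ± 0.09), both dim. The count of ligand genes higher was 7 without B6.C3H-6T replicate 3, 4 without C57BL/6J replicate 2, 1 without any one of the other mice and 0 among the brighter probe sets, and the count lower was 0 or 1. Porcn, which acylates Wnt proteins, differed by -0.24 ± 0.10. Of the 25, 6 had a mean above the 95th percentile of the olfactory receptor probe sets.

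Endothelial cells of the central vein are a source of Rspo3, Wnt2 and Wnt9b in liver, and with the brightest probe set of each the strains overlapped. Rspo3 read 6.31, 6.33 and 6.06 in C57BL/6J and 6.24, 6.17 and 6.05 in B6.C3H-6T, a difference of -0.08 ± 0.09 (limma adjusted p over genes = 0.745). Both Rspo3 probe sets were dim, below the 95th percentile of the olfactory receptor probe sets. Wnt2 differed by 0.08 ± 0.10. Wnt9b read 7.09, 7.27 and 7.20 against 7.46, 7.36 and 7.26, a difference of 0.17 ± 0.08 (limma adjusted p over genes = 0.424), and at its dimmer probe set the strains did not overlap, with a difference of 0.18 ± 0.07 (limma adjusted p = 0.42 over probe sets). Of 8 markers of central vein endothelium, 6 were higher in B6.C3H-6T, with Thbd (0.38 ± 0.11) and Vwf (0.21 ± 0.07) at an unadjusted p under 0.05 and a median of 0.11, but only 2 of the 8 were above the dim level. Those 2 genes became 1 without B6.C3H-6T replicate 1 and 0 among the brighter probe sets. The list's mean per array ran from 6.38 to 6.53 in C57BL/6J and from 6.50 to 6.59 in B6.C3H-6T, and its part in the differences of the 9 genes was not tested.

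Receptors went both ways, with 7 of 14 higher and 7 lower, a median of 0.01, and 3 higher and 2 lower at an unadjusted p under 0.05. The 3 became 1 without C57BL/6J replicate 1 or replicate 3, and the 2 became 1 without B6.C3H-6T replicate 2. Fzd7, a Frizzled receptor gene that is itself a Wnt target in several tissues, read 7.65, 7.59 and 7.60 in C57BL/6J and 7.08, 6.86 and 7.30 in B6.C3H-6T. No congenic mouse reached the C57BL/6J range, and the difference was -0.54 ± 0.10 (limma adjusted p over genes = 0.177), while a dimmer probe set of Fzd7 differed by 0.12 ± 0.12. Fzd8 was lower by a difference of -0.27 ± 0.09, with its other probe set at -0.29 ± 0.12. Lgr4, the R-spondin receptor that hepatocytes carry throughout the lobule, went the opposite way to Lgr5. It read 9.99, 9.93 and 9.80 in C57BL/6J and 10.14, 10.22 and 10.11 in B6.C3H-6T, a difference of 0.25 ± 0.07 (limma adjusted p over genes = 0.287), and its dim second probe set differed by -0.15 ± 0.09.

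**Figure D3:**
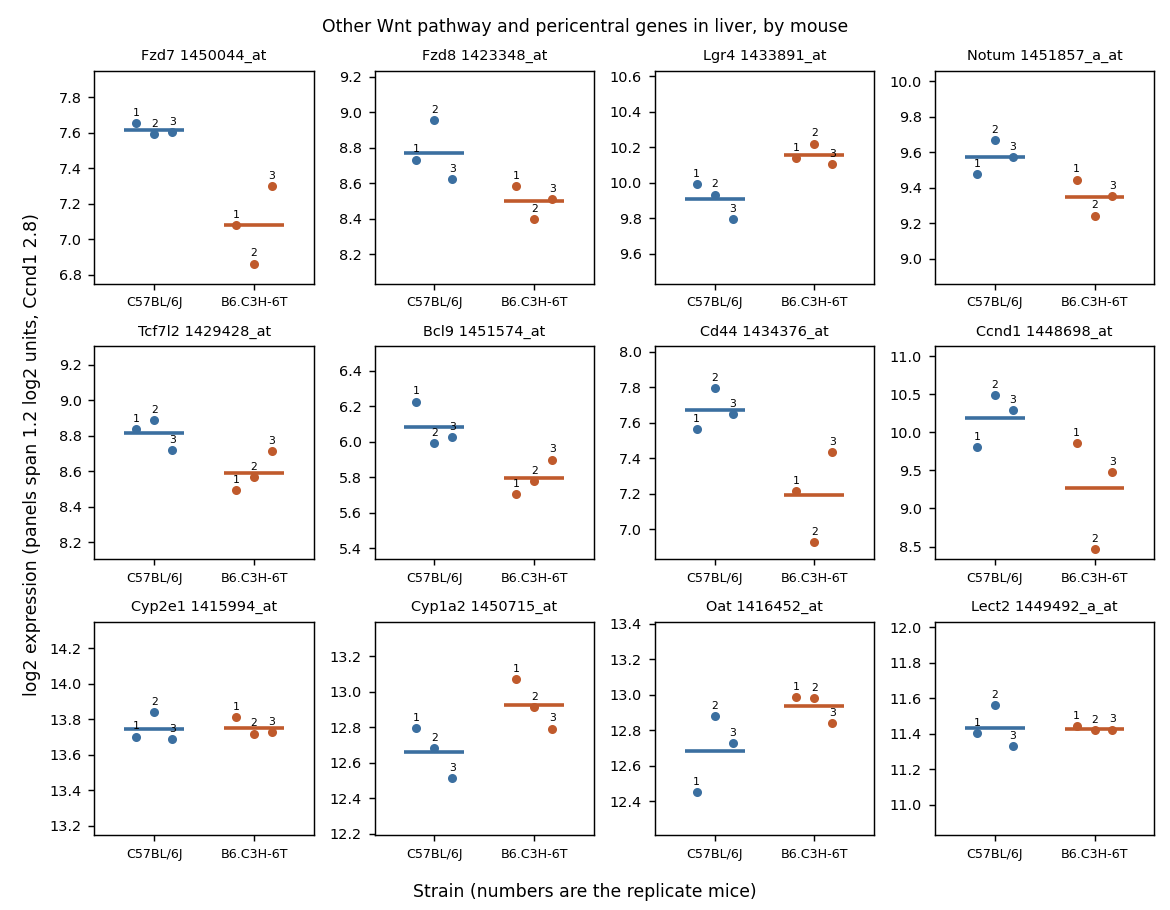
Log2 expression of 12 other Wnt pathway and pericentral genes in each mouse, with C57BL/6J in blue, B6.C3H-6T in orange, replicate numbers beside the points and group means as bars; panels have the same span except that of Ccnd1, which is wider. Fzd7, Fzd8, Notum, Tcf7l2, Bcl9 and Cd44 are lower and Lgr4 is higher in every congenic mouse, while Cyp2e1 and Lect2 overlap fully.

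Secreted inhibitors, the destruction complex and the nuclear partners held small differences. Notum, a secreted Wnt deacylase and target gene of the pathway in liver, read 9.48, 9.67 and 9.57 in C57BL/6J and 9.45, 9.24 and 9.35 in B6.C3H-6T, a difference of -0.23 ± 0.08 (limma adjusted p over genes = 0.335). Of 13 secreted inhibitors it was the 1 at an unadjusted p under 0.05, and none was lower at that level without replicate 2 of either strain. Of the 13, 10 were higher, among them Kremen1 (0.10 ± 0.07) and Dkk4 (0.10 ± 0.07). None of 10 genes of the destruction complex and its dishevelled regulators reached that level (1 did without C57BL/6J replicate 3): Gsk3b differed by -0.14 ± 0.09, Gsk3a by -0.09 ± 0.07, Dvl1 by 0.09 ± 0.07 and Apc by -0.02 ± 0.06. Of 12 nuclear and junction partners of beta-catenin 11 were lower, against 43.9% of all genes, with a median of -0.04. The 11 became 8 without C57BL/6J replicate 1 or after a second quantile normalization. With the mean of all probe sets of a gene they became 7. At an unadjusted p under 0.05, 2 were lower (Tcf7l2 and Bcl9) and 0 higher. The 2 became 1 without replicate 1 or replicate 2 of either strain. Tcf7l2, the main TCF factor gene of hepatocytes, differed by -0.22 ± 0.08 (limma adjusted p over genes = 0.344) and its 3 other probe sets by -0.38 ± 0.16, -0.30 ± 0.15 and -0.19 ± 0.11. The coactivator gene Bcl9 differed by -0.29 ± 0.08 and Pygo1 by -0.11 ± 0.07, and both were dim. At the other Bcl9 probe set, also dim, the strains overlapped and the difference was -0.12 ± 0.08.

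Of 12 general Wnt target genes 7 were higher and 5 lower, and the 3 at an unadjusted p under 0.05 were all lower: Notum, Cd44 and Ccnd1. Without C57BL/6J replicate 2 there was 1 such gene, and 1 other was higher. Cd44, a hyaluronan receptor gene, read 7.57, 7.79 and 7.65 in C57BL/6J and 7.21, 6.93 and 7.43 in B6.C3H-6T, a difference of -0.48 ± 0.12 (limma adjusted p over genes = 0.249). Ccnd1, the cyclin D1 gene, read 9.81, 10.49 and 10.29 against 9.86, 8.47 and 9.48, and B6.C3H-6T replicate 2 was again far below the rest. Its difference was -0.93 ± 0.31 (limma adjusted p over genes = 0.33), with -1.08 ± 0.35 and -0.79 ± 0.25 at its other probe sets. Cd44 and Ccnd1 are also used by cells other than hepatocytes.

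The other metabolic genes of the pericentral zone lay on both sides of 0. Cyp2e1, an ethanol and drug oxidation gene, read 13.70, 13.84 and 13.69 in C57BL/6J and 13.81, 13.72 and 13.73 in B6.C3H-6T, a difference of 0.01 ± 0.07 (limma adjusted p over genes = 0.97). Lect2, a secreted factor gene and beta-catenin target, differed by -0.00 ± 0.07, and the glutamate transporter gene Slc1a2 by -0.10 ± 0.12. Cyp1a2 (0.26 ± 0.10), the ornithine aminotransferase gene Oat (0.25 ± 0.11) and the glutathione transferase gene Gstm3 (0.65 ± 0.27) were higher at an unadjusted p under 0.05, and the nuclear receptor gene Nr1i3 (-0.21 ± 0.08) was lower. The 3 higher became 1 on leaving out C57BL/6J replicate 3 or, in B6.C3H-6T, replicate 1 or 2. The 1 lower became 2 without C57BL/6J replicate 3 and 0 without replicate 2 of either strain or the B6.C3H-6T mouse numbered 3, and with unmoderated variances both counts were 0. Over the 18 pericentral genes measured, 11 were higher and 7 lower, and the median was 0.03 against 0.02 over all genes. The list's mean per array lay between 11.31 and 11.47 in C57BL/6J and between 11.41 and 11.46 in B6.C3H-6T.

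Of 18 periportal genes, the opposite end of the lobule, 13 were higher and 5 lower in B6.C3H-6T, with 7 higher and 1 lower at an unadjusted p under 0.05 and a median of 0.18. The 7 became 5 to 10 with 1 array left out and 3 with unmoderated variances, and the 1 lower became 0 to 2 with 1 array left out. Ass1, of the urea cycle, was the 1 gene of all these lists that was called (0.87 ± 0.12, limma adjusted p over genes = 0.0496), and it rests on a single probe set. Adjusted over probe sets, as for the 9 genes, its limma p was 0.0554. Over genes it passed in 5 of 16 alternatives: the adjusted p ran from 0.0277 (without C57BL/6J replicate 1) to 0.264 (without C57BL/6J replicate 2) with 1 array left out, and was 0.484 with unmoderated variances. Aldh1b1 differed by 0.62 ± 0.13, Cps1 by 0.26 ± 0.06, Pck1 by 0.13 ± 0.10 and Cyp2f2 by 0.11 ± 0.09. Of 4 midlobular genes the hepcidin genes Hamp2 (0.77 ± 0.18) and Hamp (0.31 ± 0.11) and the bile acid gene Cyp8b1 (0.27 ± 0.12) were higher at an unadjusted p under 0.05, and Igfbp2 differed by -0.27 ± 0.22. The 3 became 1 without B6.C3H-6T replicate 1, when 1 gene was also lower, 1 without B6.C3H-6T replicate 2 and 1 with unmoderated variances. No difference between these lists and the 9 genes was tested.

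**Figure D4:**
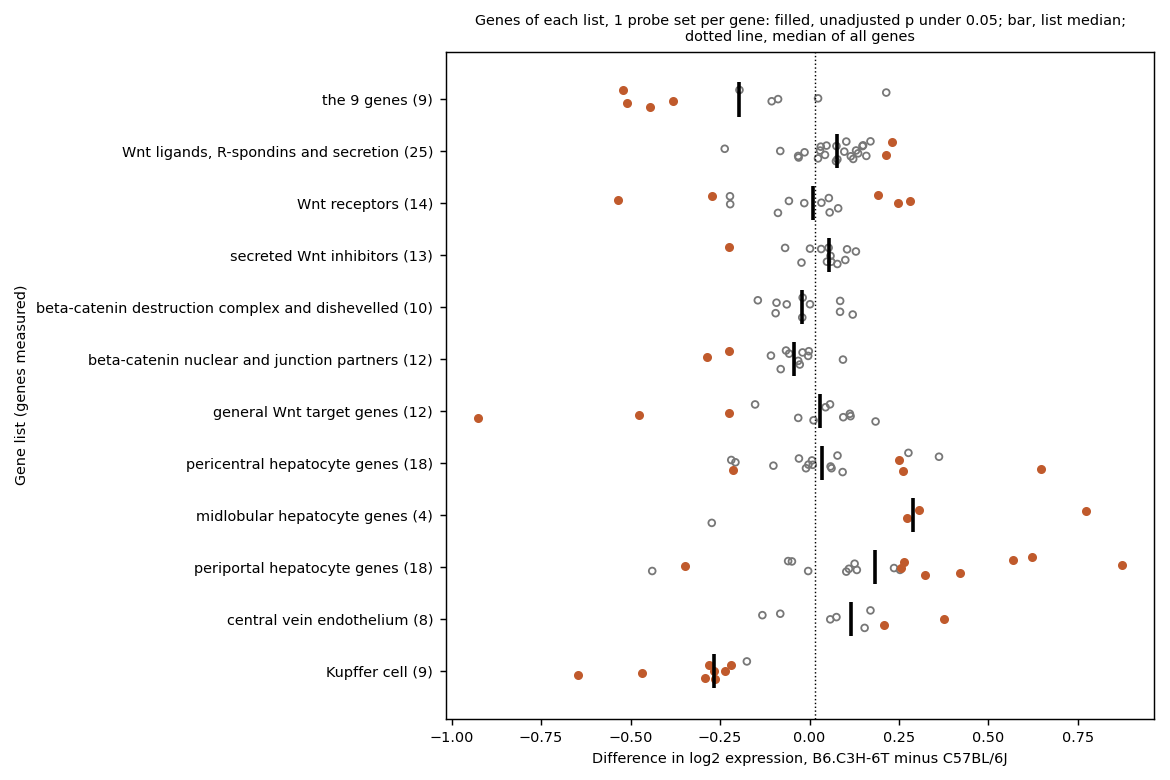
Difference in log2 expression between the strains for the genes of each list, 1 probe set per gene, with filled points at an unadjusted p under 0.05, bars at list medians and a dotted line at the median of all genes. The 9 genes and the Kupffer cell markers have medians of -0.20 and -0.27, and the periportal genes have a median of 0.18.

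Markers of other liver cells were read beside these values. Kupffer cell markers were lower in 9 of 9 cases, 8 of them at an unadjusted p under 0.05, with a median of -0.27. The 8 became 2 without C57BL/6J replicate 2, 3 without B6.C3H-6T replicate 2, 5 without C57BL/6J replicate 3, 1 without both replicates 2 and 3 with unmoderated variances, while all 9 stayed below 0 in each of these fits. Their mean per array ran from 9.60 to 9.87 in C57BL/6J and from 9.26 to 9.49 in B6.C3H-6T, and all 9 were above the dim level. Timd4 differed by -0.47 ± 0.11, C1qb by -0.27 ± 0.07 and Vsig4 by -0.24 ± 0.08, and B6.C3H-6T replicate 2 was the lowest mouse in each, as it was for Lgr5, Rnf43, Znrf3 and Tbx3. Sinusoidal endothelial markers were lower in 8 of 10 cases, with a median of -0.07, means per array from 8.83 to 8.91 against 8.70 to 8.89, and Fcgr2b (-0.27 ± 0.11) as the 1 gene at an unadjusted p under 0.05, a count of 0 to 2 with 1 array left out. Hepatocyte markers had a median of 0.02 and means from 13.56 to 13.67 against 13.63 to 13.68. In these samples of whole liver, fewer cells of a type and less RNA per cell cannot be told apart, and the part of these markers in the differences of the 9 genes was not tested.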

How the data were processed

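Expression was measured in liver RNA of 6 mice, 1 array each. The authors deposited log2 values for each probe set, and the submitters' processing notes name RMA and affy, without versions. Priming was with oligo(dT) per the labels' protocols, so that signal comes mostly from transcript 3' ends, and strain differences in sequence under a probe can alter it. The table held 45101 probe sets, of which 64 were controls and were left out. Of the others, 34945 were paired with 1 gene, 932 with several and 9160 with none, under symbols updated through the RefSeq table of GRCm38.p6. Some genes of the lists had no unshared probe set and were not analysed here, Gls2 among them.

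The strains were set against each other in limma 3.58.1 under R 4.3.3, by lmFit and eBayes with no covariate and no filter. Benjamini-Hochberg adjustment ran over every probe set tested, or over every gene when the brightest probe set stood for it. The fit was run on simulated data with known changes. That run required recovery only of changes far larger than the differences of the members. The number of arrays limits the precision. No batch was given, and replicate numbers follow accession order and only name a mouse. The members, gene lists and tests were chosen with earlier results of these data known. Named genes were all members, up to 4 called genes of each list and otherwise its 3 of smallest p, 16 others listed by name, and the 5 most like Glul; Igfbp2 was added after its value was seen. Alternatives left out 1 array, rescaled the arrays, dropped dim or less specific probe sets, changed the variance model, weighted arrays, or chose another probe set for a gene.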

Additional observations from a re-analysis of the deposited data

How the results depend on the processing

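No probe set of the 9 genes passed the adjusted threshold under any alternative run (limma; smallest adjusted p 0.146, with 6 lower at an unadjusted p under 0.05 in the fit reported). Those 6 became 4 to 7 with 1 array left out, 4 without replicate 2 of either strain, and 3 with unmoderated variances. With 1 probe set per gene, 4 of the 9 genes were lower at that level. The 4 became 2 with the mean of all probe sets of a gene or with unmoderated variances. The 0 higher became 0 to 1 with 1 array left out, and 1 (Rhbg) with neither replicate 2, an alternative chosen after seeing the data. The 13 genes called among all genes became 6 to 15 with 1 array left out: 6 when C57BL/6J replicate 2 or C57BL/6J replicate 3 was absent and 7 when B6.C3H-6T replicate 2 was. They became 2 with neither replicate 2, and 0 with unmoderated variances, a fit in which 1746 reached an unadjusted p under 0.05.

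Differences near 0 crossed it. With 1 array left out they ran from -0.098 to 0.061 for Lgr5 1444519_at, from -0.012 to 0.15 for Tbx3 1445757_at, from -0.11 to 0.11 for Tbx3 1439567_at, from -0.0071 to 0.049 for Tbx3 1444594_at, and from -0.061 to 0.087, from -0.030 to 0.064 and from -0.11 to 0.032 for Ctnnb1 1420811_a_at, 1450008_a_at and 1430533_a_at. With neither replicate 2 the difference was 0.071 for Tbx3 1439567_at, 0.0065 for Gulo and 0.040 for Ctnnb1 1430533_a_at. With arrays centred on their medians it was -0.0035 for Tbx3 1444594_at, -0.0018 for Ctnnb1 1420811_a_at and -0.0052 for Ctnnb1 1450008_a_at, and after a second quantile normalization -0.011 and -0.0086 for the first pair. The other member probe sets kept their direction under every alternative run. No paired analysis was possible because the labels give each mouse a number of its own, shared by no mouse of the other strain.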

Other observations

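Genes of glutamine and ammonia handling, the metabolism that Glul and Rhbg serve, were higher in B6.C3H-6T in 10 of 12 cases, 6 of them at an unadjusted p under 0.05 and 0 lower, with a median difference of 0.16 against 0.02 over all genes. The 6 became 2 on leaving out C57BL/6J replicate 3 or, in B6.C3H-6T, replicate 1 or 2, 3 with arrays centred on their medians and 2 after a second quantile normalization. None was called by limma. The glutamine transporter gene Slc38a2 read 10.06, 10.04 and 10.20 in C57BL/6J and 10.27, 10.46 and 10.25 in B6.C3H-6T, a difference of 0.22 ± 0.08 (limma adjusted p over genes = 0.345). Slc38a3, a glutamine transporter gene of hepatocytes, differed by 0.20 ± 0.07, and in both genes every congenic mouse was above every C57BL/6J mouse. Of 7 genes of ascorbate synthesis and uptake, the pathway of Gulo, 6 were higher with a median of 0.06, and Ugdh (0.29 ± 0.12) was the 1 at an unadjusted p under 0.05, and none reached it without C57BL/6J replicate 3, nor without replicate 2 of B6.C3H-6T. Ugp2 differed by 0.22 ± 0.10 and the transporter gene Slc23a2 by -0.29 ± 0.16.

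Other cell markers gave small medians: -0.03 for 8 stellate cell genes, 0.10 for 6 cholangiocyte genes, 0.05 for 6 kidney genes, 0.11 for 4 exocrine pancreas genes, 0.05 for 4 adipocyte genes, -0.07 for 3 red blood cell genes and -0.08 for 4 genes of proliferating cells. At an unadjusted p under 0.05 these held Tspan8 (0.21 ± 0.09), Fabp4 (0.27 ± 0.11) and Slc4a1 (0.22 ± 0.07), all higher in B6.C3H-6T, and no gene that was lower. For cholangiocyte, adipocyte and red blood cell genes the count higher was 0 in at least 1 of the fits with 1 array left out. Above the dim level were 7 of the stellate cell genes, 2 of the cholangiocyte genes, 0 of the pancreas genes and 1 in each other list.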
